A study of Mus musculus with 4 samples.

Results

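The genes of DNA replication and S phase were examined in cultured chondrocytes, the cells that make cartilage, with and without Senp6, which encodes a protease that removes SUMO, a small protein tag, from other proteins. The 43 genes were picked by symbol for their known role, out of 18298 genes that drew any read. Their measured values did not enter the rule, but earlier results of these data were known when the list was made. Poly(A) RNA was sequenced from 2 Senp6-Mut samples (Dermo1-Cre;Senp6f/f) and 2 WT samples (Senp6f/f), to find out how gene expression differed in chondrocytes that had lost Senp6. All 4 samples were primary rib chondrocytes at passage P1, from E18.5 embryos on the C57BL/6 background. The WT samples carried the same floxed alleles without Cre. Dermo1-Cre makes Cre recombinase from the Dermo1 (Twist2) locus in mesenchymal progenitors of bone and cartilage, so cells from outside that lineage keep Senp6. The series gives 2 mice per genotype but does not say whether a culture came from a single embryo or a pool. The p-values measure the spread between these samples. The 2 mutant samples differed in sex, as given below, so they came from different embryos. Both WT samples were male, so sex does not show whether they too came from different embryos. The coefficient of variation between replicates, beyond counting noise, was 0.208 within WT and 0.121 within Senp6-Mut. The source of the spread within the WT pair was not tested.

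A cell copies its DNA from many origins. The origin recognition complex (ORC), CDC6 and CDT1 load the MCM ring onto each origin, a step called licensing, and geminin keeps CDT1 from loading it again. At the onset of S phase, cyclin E with its kinase helps CDC45 and the GINS complex to turn the ring into a helicase, primase and polymerases build the new strands, and the PCNA clamp, set on DNA by replication factor C, holds the polymerases in place. Most of these genes are transcribed in a burst at the start of S phase, driven by E2F transcription factors, so their RNA is a common readout of how many cells in a culture are cycling.

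Promoters were available in RefSeq (GRCm38.p6) for 34 of the 43 genes, as the stretch from 250 bases before to 50 bases after each start. They were searched on both strands for E2F letters (TTTCCCGC, TTTGGCGC, TTTCGCGC or TTTGCCGC, whose matches may overlap each other), for the CCAAT box and for TTTGAA, the letters of the cell cycle homology region (CHR) known from mitotic genes. E2F letters stood in 14 of the 34 (41.2%), against 4.57% of 11153 tested genes with a promoter in the table and 2.6% of all 27025 genes in it. The 14 genes were Mcm3, Mcm5, Mcm6, Mcm7, Gins3, Orc1, Cdc6, Cdt1, Pola1, Pold1, Pole2, Rfc3, Lig1 and E2f2. The CCAAT box stood in 61.8% of the 34 and in 42.7% of the tested genes, and TTTGAA in 17.6% and 14.2%. A match is a description of the letters and not a bound site. Only these exact letters in this window were searched, so the lack of a match does not show the lack of an E2F site. The 170 bases before the start are shown for 3 genes that differ in how their matches lie, and for Ccne1, the gene with the largest difference between the genotypes in the expression data, which had no match. E2F letters on either strand are in capitals, and each sequence runs 5′ to 3′ towards the gene. Mcm6 (chr1:128359706-128359875, minus strand) has an overlapping pair of matches that begin 110 and 106 bases before the start and another at 47 bases. Mcm5 (chr8:75109339-75109508, plus strand) has an overlapping pair at 153 and 149 bases, and Cdc6 (chr11:98907981-98908150, plus strand) has a single match at 138 bases. The Ccne1 window is chr7:38107491-38107660, minus strand.
Mcm6: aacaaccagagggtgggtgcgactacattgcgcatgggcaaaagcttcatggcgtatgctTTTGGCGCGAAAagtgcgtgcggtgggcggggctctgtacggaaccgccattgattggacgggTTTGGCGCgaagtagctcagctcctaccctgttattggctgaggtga
Mcm5: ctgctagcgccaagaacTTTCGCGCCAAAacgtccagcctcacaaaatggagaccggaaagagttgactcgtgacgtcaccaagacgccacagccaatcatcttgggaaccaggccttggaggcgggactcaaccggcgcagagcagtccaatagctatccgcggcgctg
Cdc6: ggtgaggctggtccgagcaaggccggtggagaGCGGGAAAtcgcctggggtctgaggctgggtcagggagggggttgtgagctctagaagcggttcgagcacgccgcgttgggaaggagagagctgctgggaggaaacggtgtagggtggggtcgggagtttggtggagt
Ccne1: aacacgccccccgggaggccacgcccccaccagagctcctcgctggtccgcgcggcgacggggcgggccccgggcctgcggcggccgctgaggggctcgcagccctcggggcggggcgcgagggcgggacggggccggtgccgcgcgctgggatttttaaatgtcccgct

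**Figure D1:**
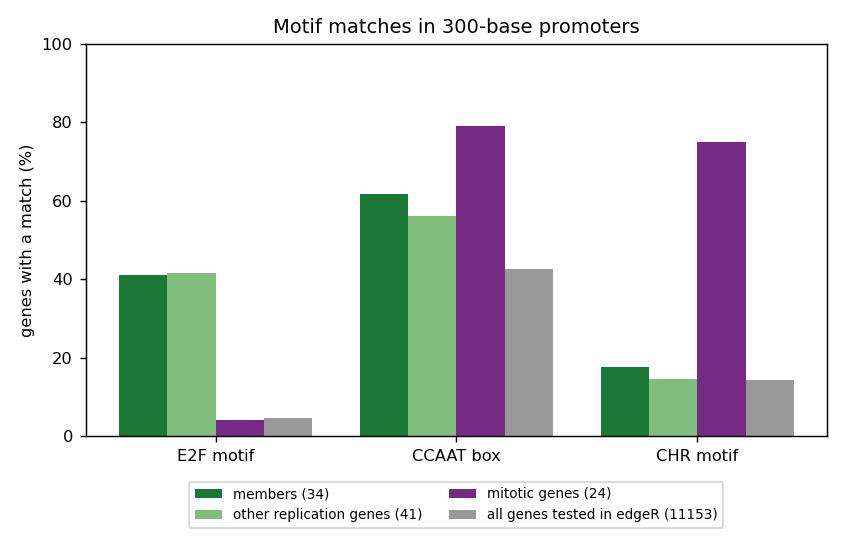
Percent of genes (vertical axis, from 0 to 100) whose promoter, from 250 bases before to 50 bases after the start, holds E2F letters, a CCAAT box or the CHR letters TTTGAA on either strand. Bars stand for the replication genes of the list (34 with a promoter), 41 other replication genes, 24 mitotic genes and 11153 tested genes. E2F letters were found in 41.2%, 41.5%, 4.17% and 4.57% of them in this order, and TTTGAA in 75.0% of the mitotic genes.

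The reads counted on genes ranged from 21015873 to 30994579 per sample, and 14123 genes entered the test. Senp6 had 1125 and 2326 counts in WT and 1839 and 1126 in Senp6-Mut, with a log2 fold change of -0.56 and an adjusted p of 0.410 in edgeR. The deleted exons cannot be seen in counts of whole genes, so this does not check the labels. Chondrocyte markers were present in every sample, with a summed RPKM (reads scaled by gene length and by the reads counted on genes) of 1016 and 1006 in WT and 512 and 644 in Senp6-Mut, and 12 of 12 measured markers were below both WT samples in both mutants. The summed RPKM of skeletal muscle markers was 82.8 and 30.1 in WT and 141 and 156 in Senp6-Mut, with 6 of 9 above both WT samples. Osteoblast markers summed to 96.2 and 37.6 in WT and 20.0 and 30.3 in Senp6-Mut, with 4 of 6 below both WT samples. Fibroblast markers summed to 12567 and 8756 in WT and 8885 and 6482 in Senp6-Mut, with 4 of 7 below both WT samples and 1 above, Thy1. The sum is mostly that of the collagens Col1a1 and Col1a2. Macrophage markers summed to 21.8 and 20.2 in WT and 10.9 and 16.2 in Senp6-Mut, with 5 of 8 below both WT samples and 1 above. Endothelial markers summed to at most 1.52 and blood markers to at most 0.364. Beside these counts, 28.3% of all tested genes were above both WT samples in both mutants, and 19.2% were below both. Senp6-Mut replicate 2 alone expressed Xist, at an RPKM of 22.4, so embryos of both sexes were among the mutants. The RPKM of the Y-linked gene Ddx3y was 8.39 and 9.48 in WT and 11.1 and 0.0229 in Senp6-Mut. By these genes both WT samples and Senp6-Mut replicate 1 were male. The part of the other cell types and of sex in the values given here was not tested.

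No gene of the list was called as different between the genotypes in the main edgeR test of all 4 samples, which called no gene at all. All 43 genes passed the filter on low counts, and their means over the 4 samples ran from an RPKM of 0.702 for E2f2 to 80.3 for Pcna. In edgeR's quasi-likelihood test with Benjamini-Hochberg adjustment over all tested genes, the adjusted p was under 0.05 for 0 of the 43 in either direction, as it was for 0 of all 14123 genes (0.0% in each direction). At an unadjusted p under 0.05 in the same test, Ccne1 was the only list gene that was higher and Pold2 the only one that was lower, against 9.29% of all tested genes higher and 6.28% lower. DESeq2 called Ccne1 alone among the 43 as higher, against 3.07% of all tested genes. Of all tested genes, limma on log2(RPKM + 1) called none. The smallest adjusted p in edgeR was 0.140 among the 43 genes and 0.0512 among all genes. An exact permutation test of 2 against 2 samples cannot give a two-sided p below 0.333, so the tests lean on a spread estimated by edgeR across genes.

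The fitted differences were small for most of the list, and the direction of most depended on which WT sample was kept, as given below. The median log2 fold change of the 43 genes, Senp6-Mut minus WT, was 0.05, and that of all tested genes was 0.01. It was positive for 27 of the 43 (62.8%) and for 51.4% of all tested genes. With libraries scaled by their total counts alone, 33 of the 43 were positive. Only Ccne1 and Ccne2, 4.65% of the list, had an absolute log2 fold change over 0.5, against 20.3% of all tested genes. The 95% interval of the difference lay within a log2 of -1 to 1, a change of less than 2-fold, for 40 of the 43 genes, and reached beyond it for Ccne1, Ccne2 and Cdc6. The interval excluded 0 for Ccne1 and Pold2. Standard errors ran from 0.132 to 0.357 on the log2 scale, so differences smaller than these intervals were not detectable with 2 samples per genotype.

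**Figure D2:**
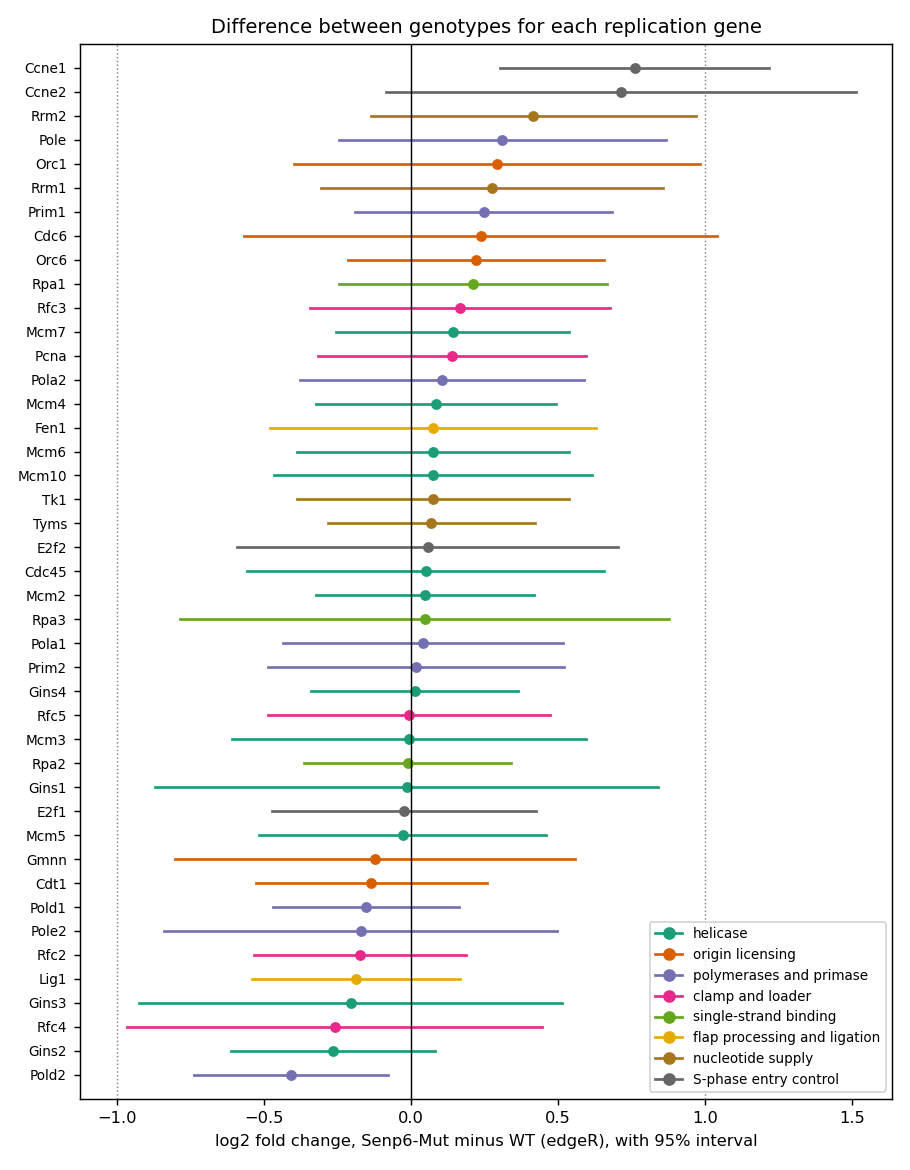
Fitted log2 fold change of each of the 43 replication genes, Senp6-Mut minus WT (horizontal axis), as a point with its 95% interval from edgeR (2 samples per genotype), ordered by size and coloured by role. Dotted lines mark a 2-fold change either way; Ccne1 at 0.76 and Pold2 at -0.41 have intervals that exclude 0, and Ccne2, at 0.71, has the widest reach above 1.

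The largest spread lay within the WT pair. RPKM was lowest in WT replicate 1 for 38 of the 43 genes (88.4%), against 43.1% of all tested genes, and was highest in WT replicate 2 for 33 (76.7%), against 22.7%. Senp6-Mut replicate 2 was lowest for the remaining 5 genes, which were Gins2, Cdt1, Pold1, Pold2 and E2f2. After TMM scaling, 42 of the 43 were higher in WT replicate 2 than in WT replicate 1 (97.7%, against 50.3% of all tested genes), with a median log2 ratio of 0.54, against 0.00 for all genes. On the RPKM scale the ratio of WT replicate 2 to WT replicate 1 ran from 1.02 for E2f2 to 2.21 for Cdc6 and passed 1.5 for 24 genes. No gene differed by 1.5 times between the mutants, where the largest ratio was 1.36, for Rpa3. In 39 of the 43 genes (90.7%, against 57.5% of all tested genes) the gap between the WT samples was wider than the gap between the genotype means.

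The 43 genes together took 0.167% and 0.246% of the reads in WT replicates 1 and 2, and 0.229% and 0.223% in Senp6-Mut replicates 1 and 2. Both mutants thus lay between the WT samples, nearer to WT replicate 2. Marker genes also differed within the WT pair, with higher sums of osteoblast, muscle and fibroblast markers in WT replicate 1, as given above. Among the fibroblast markers, Thy1 and Pdgfra went the other way, with an RPKM of 219 and 93.2 in WT replicate 1 and 341 and 127 in WT replicate 2. In RNA from whole cultures, fewer cycling cells and less replication RNA in each cell cannot be told apart. The 6 genes of the MCM ring lay close together in every sample. They ranged from 21.9 to 37.4 RPKM in WT replicate 1, 30.8 to 51.3 in WT replicate 2, 30.2 to 47.4 in Senp6-Mut replicate 1 and 27.5 to 53.3 in Senp6-Mut replicate 2, so that the highest was 1.57 to 1.94 times the lowest in every sample.

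**Figure D3:**
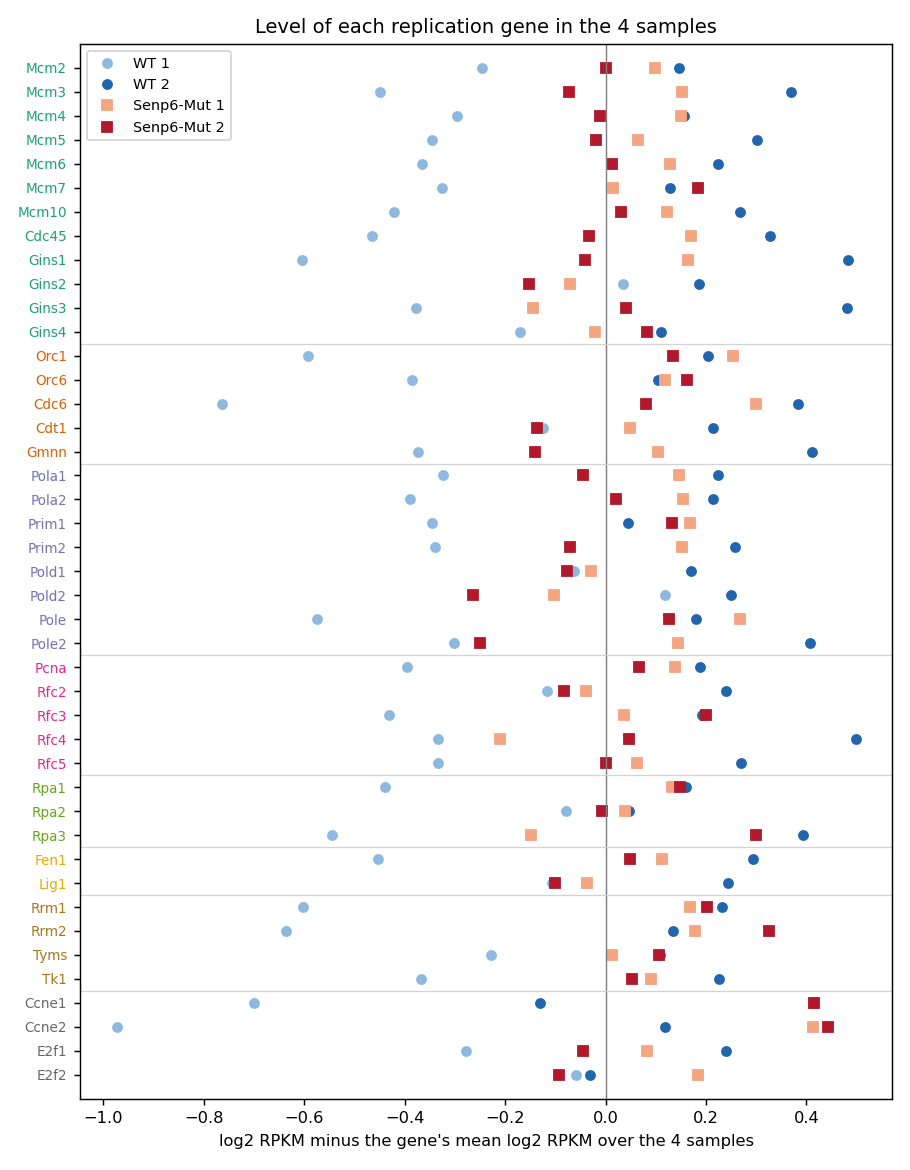
Level of each of the 43 replication genes in each sample, as log2 RPKM minus the mean of that gene's log2 RPKM over the 4 samples (horizontal axis). Circles are WT and squares Senp6-Mut, pale for replicate 1 and dark for replicate 2, and gene names are coloured by role. The pale circles of WT replicate 1 lie leftmost for 38 genes, the dark circles of WT replicate 2 rightmost for 33, and the Senp6-Mut squares of Ccne1 fall on top of each other to the right of both circles.

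Among licensing genes, Orc6, a subunit of ORC, had an RPKM of 10.3 and 14.5 in WT and 14.6 and 15.1 in Senp6-Mut. Orc1, the subunit whose level follows the cell cycle, had 1.48 and 2.57 in WT and 2.65 and 2.44 in Senp6-Mut. The mutants were above both WT samples for Orc6 by a narrow margin, and overlapped them for Orc1. Their log2 fold changes were 0.22 (SE 0.182, adjusted p = 0.628 in edgeR) and 0.29 (SE 0.288, adjusted p = 0.687). Cdc6, which helps ORC to load the ring, had 2.25 and 4.98 RPKM in WT and 4.71 and 4.04 in Senp6-Mut, the largest ratio between the WT samples of all 43 genes. Cdt1, the other loading factor, and Gmnn, which encodes its inhibitor geminin, had log2 fold changes of -0.13 and -0.12. The RPKM ratio of Cdt1 to Gmnn was 1.73 and 1.27 in WT and 1.40 and 1.46 in Senp6-Mut, so the mutants lay between the WT samples. Cdc6 and the ratios named here and further on were chosen after their values were seen.

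The helicase genes had log2 fold changes from -0.26 to 0.14, 7 of 12 of them positive, with no adjusted p below 0.451 in edgeR. Those of the MCM ring itself (Mcm2 to Mcm7) lay between -0.03 and 0.14, with 95% intervals that reached from -0.61 to 0.59. Mcm7, the most abundant of them, had 37.4 and 51.3 RPKM in WT and 47.4 and 53.3 in Senp6-Mut, and the groups overlapped. Gins2, a subunit of the GINS complex, was the exception to the order of the samples: its RPKM was 21.4 and 23.8 in WT and 19.9 and 18.8 in Senp6-Mut. Both mutants were below both WT samples, with a log2 fold change of -0.26 (SE 0.145, adjusted p = 0.451). Exons of 13 of the 43 genes, among them Mcm7, Gins2, Orc1, Orc6, Pole, Rfc4, Lig1 and Ccne2, overlap those of genes on the opposite strand, and the sources used here do not state that the counting used strand. The other GINS genes, Gins1, Gins3 and Gins4, and Mcm10 and Cdc45, which help to activate the ring, overlapped between the genotypes.

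Polymerase genes went both ways. Pold2, the small accessory subunit of polymerase delta, had an RPKM of 33.9 and 37.2 in WT and 29.1 and 26.0 in Senp6-Mut, means of 35.5 ± 2.31 and 27.6 ± 2.17 (SD, n = 2). Both mutants were below both WT samples, and the WT samples differed by only 1.10 times, among the closest WT pairs of the list. The log2 fold change of Pold2 was -0.41 (SE 0.138, 95% interval -0.74 to -0.08), with an adjusted p of 0.229 in edgeR. Its catalytic partner Pold1 overlapped between the groups on the RPKM scale, and after TMM scaling both mutants were below both WT samples. The RPKM ratio of Pold2 to Pold1 was 1.62 and 1.51 in WT and 1.36 and 1.26 in Senp6-Mut. It shares the values of Pold2, the gene with the lowest log2 fold change of the list, and adds no separate support for that difference.

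Pole, the catalytic subunit of polymerase epsilon, which copies the leading strand, had 5.04 and 8.50 RPKM in WT and 9.04 and 8.19 in Senp6-Mut. The low WT replicate 1 set the group means apart, while the other samples lay close together. The log2 fold change was 0.31 (SE 0.233, adjusted p = 0.587 in edgeR). Prim1, the catalytic subunit of primase, had 8.07 and 10.6 in WT and 11.5 and 11.2 in Senp6-Mut, both mutants above both WT samples, with a log2 fold change of 0.25 (SE 0.182, adjusted p = 0.580). The other primase subunit Prim2, the polymerase alpha genes Pola1 and Pola2, and Pole2 overlapped between the genotypes.

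Pcna, the sliding clamp, was the most abundant gene of the list, with an RPKM of 60.3 and 90.4 in WT and 87.3 and 83.1 in Senp6-Mut. The mutants lay between the WT samples, and the log2 fold change was 0.14 (SE 0.190, adjusted p = 0.784 in edgeR). The clamp loader genes differed from each other in sign, from -0.26 for Rfc4 to 0.17 for Rfc3. Rfc4 had 4.91 and 8.73 in WT and 5.35 and 6.38 in Senp6-Mut, again between the WT samples (SE 0.294, adjusted p = 0.734). All 5 genes of the clamp and its loader overlapped between the genotypes. Pcna and Tyms have named pseudogenes, so reads could be split between near copies in both.

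Rpa1 encodes RPA70, the large subunit of the complex that coats single-stranded DNA, and a protein from which SENP6 is known to remove SUMO. Its RPKM was 38.8 and 58.9 in WT and 57.7 and 58.4 in Senp6-Mut, so 3 samples were nearly level and WT replicate 1 was low. The log2 fold change of Rpa1 was 0.21 (SE 0.190, 95% interval -0.24 to 0.67), with an adjusted p of 0.656 in edgeR. Rpa2 and Rpa3, its partners, had log2 fold changes of -0.01 and 0.05. Lig1, the ligase that seals the fragments of the lagging strand, had 22.6 and 28.8 in WT and 23.7 and 22.7 in Senp6-Mut, a log2 fold change of -0.19 (SE 0.148, adjusted p = 0.610) with overlapping groups. Fen1, which trims the flaps that Lig1 then joins, overlapped as well, at 0.08. These values are RNA levels and give no measure of the SUMO carried by RPA70.

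The 4 genes of nucleotide supply all had positive log2 fold changes with all 4 samples, from 0.07 to 0.42, and none was called. Without WT replicate 1, those of Rrm1, Tyms and Tk1 were negative, at -0.065, -0.067 and -0.17, and that of Rrm2 was 0.10. Rrm2, the small subunit of ribonucleotide reductase, whose level limits the supply of deoxynucleotides, had an RPKM of 33.4 and 56.9 in WT and 58.7 and 65.0 in Senp6-Mut. Both mutants were above both WT samples, but the upper WT sample lay closer to the mutants than to the lower WT sample. The log2 fold change of Rrm2 was 0.42 (SE 0.231, 95% interval -0.14 to 0.97), with an adjusted p of 0.456 in edgeR. Rrm1, the large subunit, had 32.4 and 57.7 in WT and 55.2 and 56.5 in Senp6-Mut, with overlapping groups (log2 fold change 0.28, SE 0.243, adjusted p = 0.650). Tyms and Tk1, enzymes of thymidylate supply, had log2 fold changes of 0.07 each.

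The cyclin E genes, whose proteins start S phase together with CDK2, had the largest differences of the list. Ccne1 had an RPKM of 10.8 and 16.1 in WT and 23.4 in each Senp6-Mut sample, means of 13.4 ± 3.70 and 23.4 ± 0.00157 (SD, n = 2). The mutant values came from 1468 and 1338 counts, and with 2 samples so small an SD says little about the spread of Ccne1. Both mutants were above both WT samples. The fitted fold was 1.70, a log2 fold change of 0.76 (SE 0.191, 95% interval 0.30 to 1.22), with an adjusted p of 0.140 in edgeR and 0.0232 in DESeq2. Ccne2 had 1.53 and 3.25 in WT and 3.99 and 4.08 in Senp6-Mut, and a log2 fold change of 0.71 (SE 0.333, 95% interval -0.08 to 1.51) with an adjusted p of 0.372 in edgeR. The mutants were again above both WT samples, but the WT samples differed by 2.13 times, more than the genotype means did. The reads of Ccne2 may include some from Ints8, which overlaps it on the opposite strand.

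The RPKM ratio of Ccne1 to Mcm2, a gene of the MCM ring, was 0.405 and 0.458 in WT and 0.691 and 0.739 in Senp6-Mut. Taken against each of the 12 helicase genes in turn, the ratio of Ccne1 was above both WT samples in both mutants for 12 of 12. These ratios share the values of Ccne1, the gene with the largest difference of the list, so they are not independent of each other. They add no separate support for that difference, and such ratios were not counted for other genes. The WT samples differed in the ratios of Ccne1 by 1.01 times (Mcm6) to 1.43 times (Gins1). The E2F genes of the list did not follow the cyclins: E2f1 and E2f2, transcription factors that drive S-phase genes, had log2 fold changes of -0.02 and 0.06. Counted over all 43 genes on the RPKM scale, both mutants were above both WT samples for 5 genes (Ccne1, Ccne2, Rrm2, Orc6 and Prim1; 11.6%), against 28.3% of all tested genes, and below both for 2 (Gins2 and Pold2; 4.65%), against 19.2%. Both shares of the list were below those of all genes. The 28 genes outside the rule for values in every sample had log2 fold changes from -0.20 to 0.24 and adjusted p of at least 0.648 in edgeR.

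**Figure D4:**
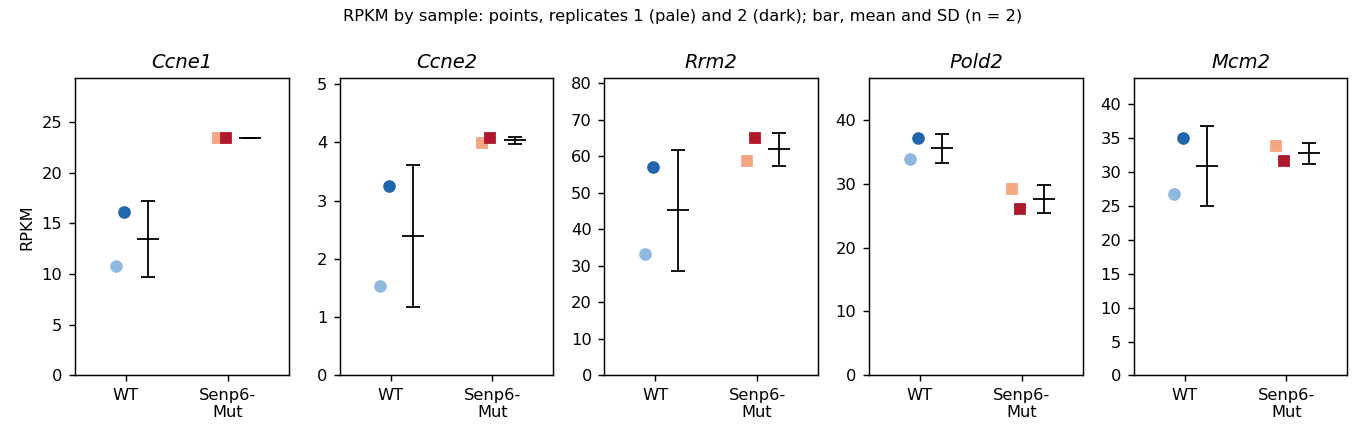
RPKM (vertical axes, each from 0) of Ccne1, Ccne2, Rrm2, Pold2 and Mcm2 in the 4 samples, circles for WT and squares for Senp6-Mut, pale for replicate 1 and dark for replicate 2, with the mean and SD of each pair (n = 2) beside the points. Mutants lie above both WT samples for the cyclin E genes and Rrm2 and below both for Pold2, and between the WT samples for Mcm2.

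Which WT sample was kept decided the direction of most of the list. Without WT replicate 1, the median log2 fold change of the 43 genes was -0.19 and only 7 were positive. Without WT replicate 2 the median was 0.33 and 36 were positive. Ccne1 was called higher in edgeR in both cases, with log2 fold changes of 0.53 (adjusted p = 0.0407) and 1.01 (adjusted p = 0.000574), but in neither fit that left out a mutant. Over all alternative fits the adjusted p of Ccne1 ran from 0.000574 to 0.285, and its log2 fold change was positive in each. It was the only list gene called without WT replicate 1, against 3.55% of all tested genes called higher. Without WT replicate 2, 7 of the 43 (16.3%) were called higher, against 9.25% of all tested genes, and they were Ccne1, Ccne2, Rrm1, Rrm2, Pole, Cdc6 and Rpa1. The lone WT sample in each of these fits is assumed to vary like the mutants. Pold2 was at -0.50 to -0.31 whichever sample was left out, and was called in none of these fits.

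**Figure D5:**
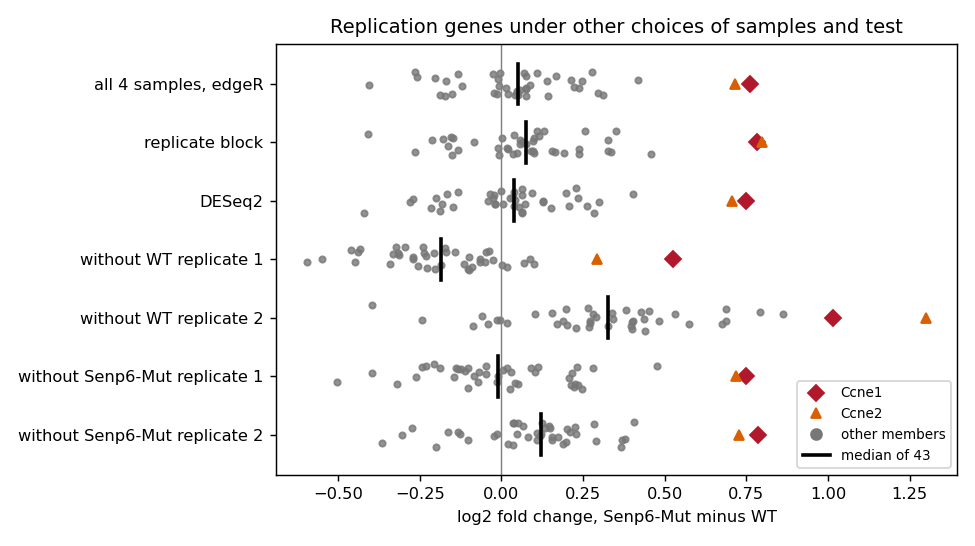
Log2 fold change of the 43 replication genes, Senp6-Mut minus WT (horizontal axis), under 7 choices of samples and test (rows; vertical position within a row is only spread). Grey points are genes, the black bar is their median, the red diamond is Ccne1 and the orange triangle Ccne2. The median moved from -0.19 without WT replicate 1 to 0.33 without WT replicate 2, while Ccne1 stayed between 0.53 and 1.01.

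Other genes of the same processes were read beside the list. Of 47 further replication genes, such as the remaining ORC subunits, the kinase CDC7 and its activator Dbf4, and the S-phase factors Ccna2 and E2f8, 0 were called in edgeR, 1 was higher at an unadjusted p under 0.05 and 0 were lower. That gene was Dna2, a nuclease and helicase of flap processing, with a log2 fold change of 0.91 (SE 0.369, adjusted p = 0.304) and an RPKM of 0.554 and 1.23 in WT and 1.85 and 1.62 in Senp6-Mut. The median of the 47 was 0.09, and 41 of them were lowest in WT replicate 1. Of 28 mitotic genes, 0 were called or passed an unadjusted p under 0.05, the median was 0.14, and 27 were lowest in WT replicate 1. Over all tested genes, 0 were called in edgeR, and 9.29% were higher and 6.28% lower at an unadjusted p under 0.05. Like the 43 genes, both lists were lowest in WT replicate 1 for most members.

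The control of entry into S phase was read from a list of 12 CDK inhibitors, D cyclins, Rb1 and related E2F genes. None was called in edgeR, and 4 were higher and 0 lower at an unadjusted p under 0.05, beside the 9.29% and 6.28% of all tested genes given above. The median log2 fold change of the 12 was 0.10. On the RPKM scale both mutants were above both WT samples for 5 of the 12, against 28.3% of all tested genes. They were below both for 2 of the 12, against 19.2%. Cdkn1a, the p53 target that encodes the CDK inhibitor p21, had 57.7 and 84.6 RPKM in WT and 122 and 176 in Senp6-Mut, and a log2 fold change of 1.02 (SE 0.226, adjusted p = 0.115 in edgeR). Ccnd1, Ccnd2 and Rb1, the other genes past the unadjusted threshold, had log2 fold changes of 0.72, 0.52 and 0.44. The other CDK inhibitor genes went both ways. Cdkn2c was at 0.04 and Cdkn1c at -0.11, both with overlapping groups. Cdkn2a was at -0.77 (SE 0.417, adjusted p = 0.445 in edgeR) with overlapping groups. Cdkn2b and Cdkn1b, the genes with both mutants below both WT samples, were at -0.46 and -0.40. All 3 were highest in WT replicate 1, and WT replicate 2 lay near the mutants. The RPKM of Cdkn2b was 90.8 and 57.4 in WT and 57.0 and 54.1 in Senp6-Mut. That of Cdkn1b was 23.8 and 17.9 in WT and 16.7 and 15.9 in Senp6-Mut. Cdkn2a had 44.9 and 17.8 in WT and 21.2 and 16.8 in Senp6-Mut. These 3 genes were chosen after their values were seen.

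Genes with and without E2F letters in the promoter had overlapping ranges of differences. The 14 genes with a match had a median log2 fold change of 0.02 (from -0.20 to 0.29), and the 20 without had 0.08 (from -0.41 to 0.76). The median RPKM ratio of WT replicate 2 to WT replicate 1 was 1.52 and 1.51. The genes without a match include Ccne1, Rrm2 and Pold2, and those with one include Mcm6, Mcm5 and Cdc6, whose windows are shown above. Genes without a match may still have E2F sites, so this does not compare genes with and without control by E2F. The sequence table holds no entry for Mcm4, Gins1, Gins2, Gins4, Gmnn, Prim2, Pole, Rfc2 and Ccne2.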

How the data were processed

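Poly(A) RNA of 4 cultures was sequenced. The authors deposited a read count for each gene, not normalized, and its RPKM, the count scaled by gene length and by the reads on genes. The submitters' processing notes name mm9 and SAMtools, without their roles. The aligner, counter, annotation and strand setting are not given in the sources used here. Genes without a read received a count of 0.

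Counts were tested with edgeR 4.0.16 (R 4.3.3; quasi-likelihood, robust, TMM factors 0.966 to 1.03), Senp6-Mut against WT, over the 14123 genes that reached 10 counts in 2 samples or more, and p-values were adjusted by Benjamini-Hochberg. SEs came from the F statistic. RPKM was used as deposited. Alternatives were DESeq2 1.42.0, limma 3.58.1 on log2(RPKM + 1) and log2(RPKM + 0.1), other scalings and filters, a block for the replicate number, and fits that each left out a sample. Scripts were tested on simulated data. Replicates differed beyond sampling noise (chi-square over degrees of freedom 40.8 in WT, 20.1 in Senp6-Mut), and each counted as a sample.

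The gene list, the comparison lists and the markers were chosen with earlier results of these data known. Values in every sample were given for genes called, Rpa1, the 10 largest absolute log2 fold changes and the highest RPKM of each role. Promoters came from RefSeq (GRCm38.p6) by gene ID. Exon overlaps came from the GENCODE M21 annotation. No coordinates of the files were used.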

Additional observations from a re-analysis of the deposited data

How the results depend on the processing

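Log2 fold changes of the 15 genes given with values kept their sign and their side of the threshold in 166 alternative values, passed the threshold in 8 and turned sign in 6. Over the fits that each left out a sample, Orc1 ran from -0.026 to 0.69, Rrm1 from -0.065 to 0.69, Rpa1 from -0.038 to 0.48, Mcm7 from -0.047 to 0.33, Pcna from -0.10 to 0.40 and Rfc4 from -0.60 to 0.16, the lower value without WT replicate 1 and the higher without WT replicate 2. The count of list genes called was 1 with DESeq2 and 0 to 7 over those fits, and that of other replication genes 0 to 13, the highest of each without WT replicate 2. The other replication genes numbered 47, and the share of all tested genes called higher without WT replicate 2 is given above. Counts from fits with a lone sample in a group rest on its assumed spread, so no enrichment was read from them. The count over all genes was 697 with DESeq2 (4.94% of those tested) and 8 with total counts only (0.0566%). Without a filter it was 286 (1.56%), and with the replicate block, which called 0 list genes, it was 117 (0.828%). It was 105 to 2740 when a sample was dropped, lowest without Senp6-Mut replicate 2 and highest without WT replicate 2. The median log2 fold change of the list then ran from -0.19 to 0.33. Differences between replicates correlated across genes at -0.06 between the genotypes, so no pairing by replicate number was seen over all genes. Such a correlation cannot show pairing that touches only some genes. No other scaling moved the median of all genes past 0.06. With 2 samples per genotype, no test for an outlying sample could be run, and the causes of these changes were not tested.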
